A study of Homo sapiens with 30 samples.

Results

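BUB3 was knocked down in LNCaP, a line of human prostate cancer cells that responds to androgen, and the RNA of 3 shBUB3 libraries was compared with that of 3 libraries carrying the pLKO control. Genes were followed when they reached 1 FPKM (fragments counted per gene, scaled to the gene's length and the library's reads) or more in at least 3 of these 6 libraries. This gave 11865 of the 26443 genes with values in the deposited table. The 6 libraries belong to a series of 30 on how polycomb proteins, BUB3 and USP7 bear on FOXA1 protein. They come from an experiment of 12 libraries in which shUSP7 and shFOXA1 groups of 3 libraries each share the same control. LNCaP cells were kept in RPMI with serum, received a control shRNA in the pLKO vector or an shRNA against BUB3, USP7 or FOXA1 by infection, and were taken after 5 days. The sample titles name a single shBUB3 group without a hairpin number. The labels do not say whether the 3 libraries of a group came from separate cultures. A p-value here therefore reflects only how much these libraries vary, which may be technical. No other allele, drug or hormone treatment is labelled in these groups.

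BUB3 is a WD-repeat protein that brings the kinases BUB1 and BUBR1 (gene BUB1B) to kinetochores. There they take part in the spindle assembly checkpoint, which keeps CDC20 from activating the anaphase-promoting complex until every chromosome is attached to the spindle. Most mitotic genes are transcribed late in the cell cycle from promoters with a CHR element and CCAAT boxes. MuvB, B-MYB and FOXM1 activate the CHR genes in cycling cells, and the DREAM complex represses them, and the E2F-bound genes of DNA replication, in cells that have left the cycle. FOXA1 is a pioneer factor of the luminal secretory program of prostate cells, which androgen drives.

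The 4 mitotic genes with the largest falls in log2(FPKM + 1) and a promoter entry in the RefSeq table (GRCh38.p14) are shown by 30 bases each, 5′ to 3′ on the gene's strand, beside 2 rising H2B histone genes, because CHR words were common in the promoters of both groups and the octamer was found in H2B promoters and in none of the mitotic ones. Capitals mark the CHR words TTTGAA or TTTAAA, the CCAAT box CCAAT, and, in the last sequence, the octamer ATTTGCAT. The octamer and the 2 histone promoters were chosen after the values were seen.
CDC20, chr1:43358910-43358939, plus strand: ttggatTTTGAAggagCCAATaggcgctcg
HMMR, chr5:163460598-163460627, plus strand: gggagaTTTGAATTTGAAaccggtagggag
NUSAP1, chr15:41332835-41332864, plus strand: tcttcaTTTAAActgtctataaatttctgc
MAD2L1, chr4:120066801-120066830, minus strand: gttactTTTGAAacgcttggcggggaagtg
HIST1H2BD, chr6:26158072-26158101, plus strand: acctcaTTTGAAtaccgcatctataaatga
HIST1H2BC, chr6:26124026-26124055, minus strand: tacctcATTTGCATagctctgcccacggat
Counted from the start site, the first word begins at base -65 in CDC20, -28 in HMMR, -40 in NUSAP1, 25 in MAD2L1, -43 in HIST1H2BD and -123 in HIST1H2BC. Words were searched on both strands in windows of 300 bases, 250 before to 50 after the start site. TTTAAA reads the same on both strands, and the CHR, CCAAT and octamer words do not contain each other. A CHR word stood in 47 of the 77 promoters (61%) found for the 95 genes of the spindle checkpoint, kinetochore, mitotic kinase and kinesin lists, against 24.3% of all 27305 promoters in the table. It stood in 1 of 42 promoters (2.38%) of replication genes, in 15 of 34 (44.1%) of replication-dependent histone genes and in 6 of 12 (50%) of the H2B genes among them. CCAAT boxes stood in 67.5% of the mitotic, 54.8% of the replication and 100% of the H2B promoters, and in 35.7% of all. Promoters were found for 9315 of the 11865 genes reported here, and among these the CHR share was 14.8% and the E2F share 7.77%. The E2F words TTTGGCGC, TTTCCCGC and TTCCCGCC, of which the last was also searched as its complement GGCGGGAA and which can overlap each other, stood in 50% of the replication promoters, 14.3% of the mitotic ones and 4.61% of all. The octamer stood in 8 of 12 H2B promoters (66.7%) and in 1.8% of all promoters. HIST1H2BD, the histone gene with the largest rise, had a CHR word and no octamer. These are word matches and not measured binding sites.

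The knocked-down gene checked the labels. BUB3 (chromosome 10, 123154277 to 123170467) stood at 36.9, 38.3 and 33.7 FPKM in the control libraries and at 3.83, 4.70 and 3.47 FPKM in the shBUB3 libraries. Its mean level was 9.08-fold lower than in the control. BUB3 was lower in shBUB3 than in shUSP7 (28.4 ± 0.43 FPKM, SD, n = 3) and shFOXA1 (15.6 ± 0.639 FPKM) as well, by -2.56 and -1.74 on the log2 scale.

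Gene tests were made with limma on log2(FPKM + 1) over all 12 libraries, with Benjamini-Hochberg adjustment over the 12524 genes in the fit. A gene was called at an adjusted p under 0.05, and a fold change on this scale understates that of genes near 1 FPKM. Of the 11865 genes, 7942 (66.9%) were called, 3830 lower (32.3%) and 4112 higher (34.7%). Changes of at least 2-fold were fewer, 701 lower (5.91%) and 339 higher (2.86%), and the median over all genes was 0.02. In 8069 genes (68%) the 3 control and the 3 shBUB3 libraries did not overlap. A count of called members is read below against these shares. The filter left 554 genes that reached 1 FPKM in exactly 3 libraries, with a median mean level of 1.10 FPKM, and left out 296 that reached it in exactly 2, with 0.830 FPKM. RNA of a bulk culture cannot tell fewer cells of a kind, such as cells in mitosis, from less RNA per cell.

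The third shBUB3 library stood apart from the other pair. Its FPKM sum was 367614, against 302935 and 306578 in the other shBUB3 libraries and 275695 to 286460 in the control. Across genes, its log2 values correlated with the other shBUB3 libraries at r = 0.983 and 0.982, where other replicate pairs of the experiment reached 0.994 to 0.996. Short genes read higher in it and long genes lower: the median difference from the mean of its 2 partners was 0.47 on the log2 scale for 290 protein-coding genes under 1000 exonic bases and -0.37 for 1063 genes over 8000. Without it the median change of the shortest group went from 0.10 to -0.03, and that of the longest from 0.03 to 0.14. Without it, 4141 genes (34.9%) were called lower and 4679 (39.4%) higher. Relative sequencing depth, from the steps between low values, was 0.900 to 1.13 in the control and 0.969 to 1.30 in shBUB3, with the first control library as 1.

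**Figure D1:**
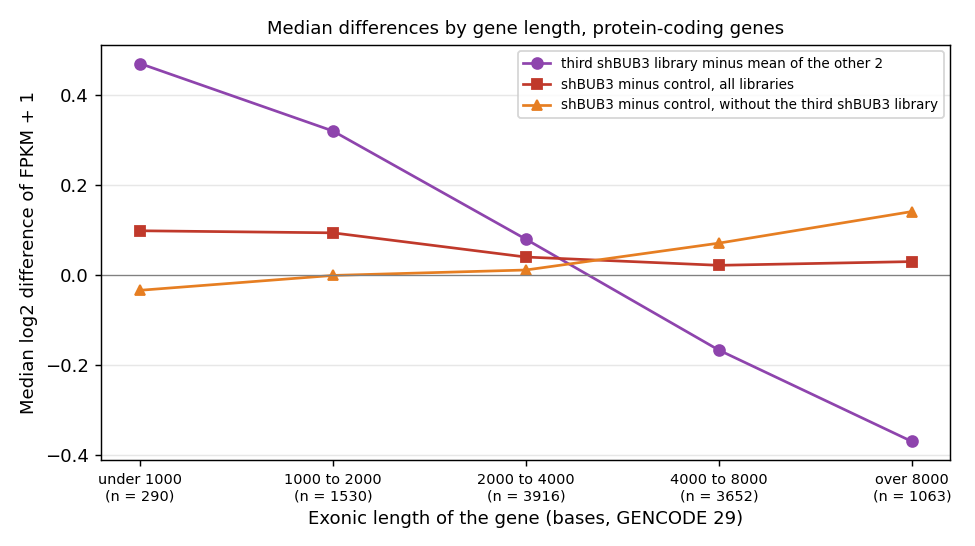
Median log2 difference of FPKM + 1 (vertical axis) for protein-coding genes in 5 bins of exonic length in bases (horizontal axis, with the number of genes). Circles give the third shBUB3 library against its 2 partners and fall from 0.47 to -0.37, squares give shBUB3 minus control with all libraries, and triangles the same without the third shBUB3 library, which end at 0.14.

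The spindle checkpoint genes fell with BUB3. Of 17 genes, 15 were called lower and none higher, 11 of them by at least 2-fold, with a median of -1.87. CDC20, which activates the anaphase-promoting complex and is held by the checkpoint, had the lowest change on the log2(FPKM + 1) scale among genes with a mean of at least 5 FPKM. By the ratio of means KIF20A (61.7-fold), HMMR (29.9-fold), STMN1 (26.5-fold) and AURKB (25.3-fold) fell more than CDC20 (24.3-fold). CDC20 stood at 47.2, 48.5 and 44.3 FPKM in the control and at 1.64, 1.86 and 2.27 FPKM in shBUB3, a change of -4.03 ± 0.107 (SE; limma adjusted p = 1.05e-10), and the groups lay far apart. MAD2L1, whose protein binds CDC20, went from 38.6, 39.2 and 37.0 FPKM to 1.47, 2.55 and 2.22 FPKM, a change of -3.69 ± 0.126. The kinases that BUB3 recruits fell too, BUB1 by -3.22 and BUB1B by -3.11, from control means of 14.9 and 14.1 FPKM to 0.714 and 0.756 FPKM. All 3 shBUB3 libraries lay below every control library in both genes, where 68% of all genes had no overlap in either direction. TTK, the kinase that starts checkpoint signalling, fell by -2.68, and CASC5 (KNL1), the kinetochore scaffold on which BUB1 and BUB3 dock, by -2.14. KNTC1, a subunit of the RZZ complex, fell by -2.02. Other members of the list had smaller changes. ZNF207 (BuGZ), a partner of BUB3, fell by -0.85, RAE1, a BUB3 relative that works in mRNA export, by -0.26 and TPR, a nuclear pore protein, by -0.38. MAD1L1, the partner of MAD2L1, stood at 7.30 ± 0.439 FPKM in the control and 6.36 ± 1.21 FPKM in shBUB3 (adjusted p = 0.12), and at -0.31 without the third library (adjusted p = 0.0017).

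**Figure D2:**
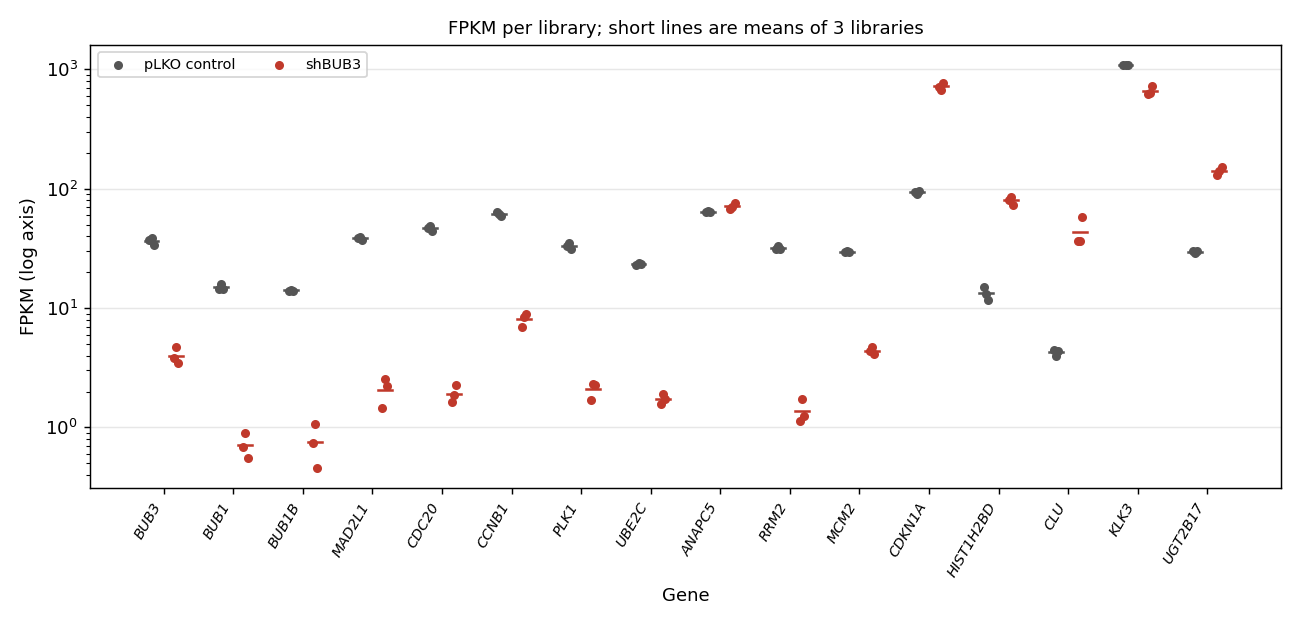
FPKM on a log axis (vertical) of 16 genes (horizontal) in the 3 pLKO control libraries and the 3 shBUB3 libraries, with short lines for the means. In all 16 genes the 2 groups do not overlap, as in 68% of all genes. CDC20 lies near 1.92 FPKM after shBUB3 and 46.7 FPKM in the control, and CDKN1A near 719 and 93.4 FPKM.

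The rest of the mitotic apparatus was lower by a similar amount. Of 31 kinetochore and centromere genes, 29 were lower and none higher, with a median of -1.86. NDC80 and NUF2, of the complex that grips microtubules, fell by -3.24 and -3.16, CENPA, the histone H3 variant of centromeres, by -2.92 and SPC24 by -3.29. CENPC (-0.27) and PMF1 (-0.23) did not pass the test. Of 16 mitotic kinase and passenger complex genes, 15 were lower, with a median of -2.20. PLK1, which acts throughout mitosis, went from 33.3, 34.9 and 31.0 FPKM to 1.70, 2.33 and 2.28 FPKM, a change of -3.46. AURKB and BIRC5, kinase and survivin subunit of the passenger complex, fell by -3.47 and -3.62, and CDK1 by -3.03. WEE1, the kinase that restrains CDK1, was not called (8.66 ± 0.482 and 7.75 ± 0.26 FPKM). All 31 genes of kinesins and spindle proteins were called lower, from HMMR (-3.76) and NUSAP1 (-3.76), which bind spindle microtubules, to NUMA1 (-0.16), which also works in the interphase nucleus. KIF20A, a kinesin of cytokinesis, went from 12.6 ± 0.0979 to 0.203 ± 0.0977 FPKM, and securin (PTTG1) fell by -3.50.

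Condensin and cohesin genes were mostly lower. Of 20 genes, 15 were lower and 1 higher, with a median of -0.87. The condensin subunits NCAPG (-2.86), SMC4 (-2.62) and NCAPH (-2.22) and the cohesion factors CDCA5 (-3.03) and ESCO2 (-2.44) fell most. Of the cohesin genes SMC3 fell by -1.08 and RAD21 by -0.88, while the loader NIPBL rose by 0.38. The cohesin release factor WAPL (0.25) and PDS5A (0.10) and PDS5B (-0.08) were not called. TOP2A, the topoisomerase that untangles sister chromosomes, fell by -3.42.

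The anaphase-promoting complex itself kept most of its RNA. Of 18 genes, 9 were lower and 5 higher, with a median of -0.10. Its ubiquitin-conjugating enzymes UBE2C and UBE2S fell by -3.16 and -1.01, and its inhibitor FBXO5 (EMI1) by -1.82. No core subunit passed 2-fold: CDC23 (-0.49) was the lowest and ANAPC13 (0.71) the highest. ANAPC5 read 63.5, 64.5 and 63.6 FPKM in the control and 67.1, 70.6 and 75.6 FPKM in shBUB3. FZR1 (CDH1), the co-activator used after mitosis, stood at 12.2 FPKM in both groups and was not called (0.01 ± 0.0532, SE).

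Cyclins and their kinases fell, and CDKN1A rose. Of 14 cyclin and CDK genes, 11 were lower and 2 higher. CCNB1, the mitotic cyclin, stood at 63.4, 61.8 and 59.4 FPKM in the control and 6.95, 8.40 and 8.85 FPKM in shBUB3, a change of -2.79. CCNB2 fell by -3.30, CCNA2, the cyclin of S phase and G2, by -2.76, and CDK2 by -2.29. The G1 cyclins fell less, CCND1 by -1.39 and CCNE1 by -0.90, and CCND3 was not called (-0.14, and -0.23 without the third shBUB3 library, adjusted p = 0.0021). CCNG1 (cyclin G1) and CDK7 rose by 0.32 and 0.25.

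CDKN1A (p21; chromosome 6, 36676460 to 36687339), a CDK inhibitor, was among the 2 highest genes with a mean of at least 5 FPKM, with CLU. CDKN1A stood at 94.2, 90.2 and 95.8 FPKM in the control and 712, 670 and 773 FPKM in shBUB3, 7.69-fold higher, with a log2 change of 2.93 ± 0.0664 (limma adjusted p = 7.66e-11). It was lower than in shUSP7 (904 ± 14.5 FPKM) by -0.33 and higher than in shFOXA1 (571 ± 8.15 FPKM) by 0.33, both called. Of the 5 other CDK inhibitor genes, CDKN2D rose by 0.56, and CDKN1B (p27, -0.44), CDKN2C (p18, -1.12), CDKN2A (-1.49) and CDKN3 (-2.40), a phosphatase of CDKs that is itself a mitotic gene, fell.

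Regulators of the cell cycle program changed in both directions, and more were lower than higher. Of 20 E2F, RB and DREAM genes, 12 were lower and 4 higher, with a median of -0.67. Among those that passed a filter of 5 FPKM, 6 were lower and the median was 0.04. MYBL2 (B-MYB), which joins MuvB to activate mitotic genes, stood at 26.1, 27.7 and 28.4 FPKM in the control and 1.80, 1.96 and 2.34 FPKM in shBUB3 (-3.23). FOXM1 fell by -2.73 and E2F1 by -1.90. E2F5, a repressor E2F of the DREAM complex, rose from 4.08 ± 0.349 to 8.71 ± 0.603 FPKM, a change of 0.93. LIN52 (0.51) and LIN37 (0.33), subunits of the MuvB core, rose, whereas LIN9 (-1.74) of the same core fell. E2F4 (0.04) was not called, and RBL2 (p130) was at 0.13 with an adjusted p of 0.337 and at 0.31 without the third shBUB3 library (adjusted p = 9.2e-06). RBBP4, a histone-binding subunit of MuvB and PRC2, fell from 16.9, 16.8 and 16.2 FPKM to 4.83, 5.53 and 4.29 FPKM. It was lower in shBUB3 than in shUSP7 by -1.52 and than in shFOXA1 by -1.66.

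Genes of DNA synthesis fell as well. Of 48 replication origin and fork genes, 43 were lower and 3 higher, with a median of -1.41. MCM2 and MCM4, of the replicative helicase, fell by -2.52 and -2.28, CDC45, its co-factor, by -2.88 and CDC6, which loads it, by -2.52. PCNA, the sliding clamp, went from 47.3, 52.5 and 49.6 FPKM to 8.77, 10.9 and 11.9 FPKM, 4.73-fold lower. The origin subunit ORC6 fell by -2.51, while ORC2 (0.40) and ORC4 (0.30) rose, as did RPA1 (0.29), and POLE (0.01) and ORC3 (0.05) were not called. Of 12 genes of deoxynucleotide supply, 9 were lower and 2 higher. RRM2, the S-phase subunit of ribonucleotide reductase, fell from 31.9 ± 1.31 to 1.37 ± 0.315 FPKM (-3.80), TK1 by -2.93 and TYMS by -2.30. All 24 recombination and Fanconi repair genes were called lower, with a median of -1.54, among them BRCA1 (-2.21) and FANCI (-2.34). HMGB2 (-3.64), LMNB1 (-3.63) and STMN1 (-3.69) were among the 15 lowest genes with a mean of at least 5 FPKM. HMGB2 is a chromatin protein, LMNB1 encodes lamin B1, and STMN1 encodes stathmin, which destabilises microtubules.

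**Figure D3:**
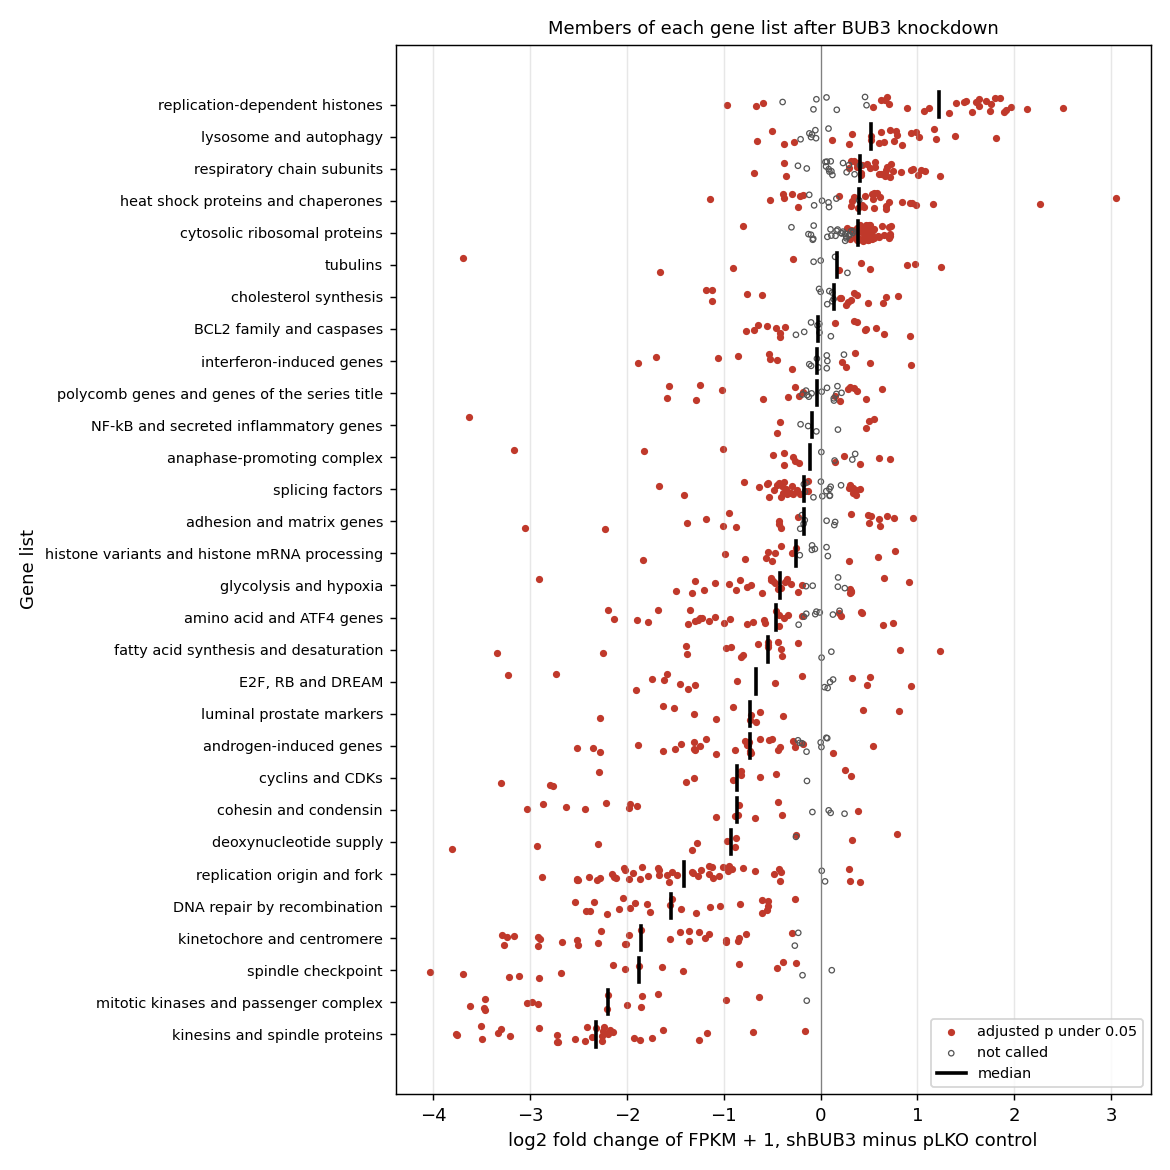
log2 fold change of FPKM + 1, shBUB3 minus control (horizontal axis), of each member of 30 lists with at least 10 members (vertical axis). Filled points were called, open points were not, and black bars are medians, which run from -2.32 for kinesins and spindle proteins to 1.23 for replication-dependent histones.

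The mitotic lists lay near the levels of the other 2 knockdowns by their medians, and more checkpoint genes were lower than higher. Against shUSP7, 7838 of the 11865 genes (66.1%) were called, 3357 lower (28.3%) and 4481 higher (37.8%), with a median of 0.07. Against shFOXA1, 8761 (73.8%) were called, 3071 lower (25.9%) and 5690 higher (48%), with a median of 0.18. Scaling the libraries to a common median ratio moved the second median to 0.02 and the share of higher genes among those called from 64.9% to 52.1%, so that directions against shFOXA1 below are relative to this shift. Of the 17 checkpoint genes, 10 were lower than in shUSP7 and none higher, and 6 were lower than in shFOXA1 and 2 higher. MAD2L1 was lower than in shUSP7 (4.58 ± 0.459 FPKM) by -0.87 and CDC20 (3.31 ± 0.365 FPKM) by -0.56. The medians of the kinetochore and kinesin lists against shUSP7 were -0.08 and -0.14, with 9 and 7 members lower and 7 and 3 higher. HMMR (-0.14) and NUSAP1 (-0.20) did not pass the test against shUSP7. PCNA, at 40.4 ± 0.738 FPKM in shUSP7 and 21.8 ± 2.37 FPKM in shFOXA1, was lower in shBUB3 than in either, by -1.86 and -0.99. CCND1 was lower than in shUSP7 (93.3 ± 3.72 FPKM) by -1.53 and did not pass the test against shFOXA1 (0.07).

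Histone genes of the replication-dependent clusters moved opposite to the rest of the S-phase genes. Of 65 such genes listed, 36 passed the filter, and 26 of these were higher and 3 lower, with a median of 1.23 and 20 higher by at least 2-fold. The summed level of all 65 listed genes was 433 to 456 FPKM in the control libraries and 1191 to 1304 FPKM in the shBUB3 libraries. These genes encode the core and linker histones, mostly from messages without a poly(A) tail. The values do not tell tailed from untailed messages, so the summed level need not follow all histone RNA. Sequences of these genes are so alike that reads may be shared between them, so single-gene values are uncertain. HIST1H2BD went from 15.1, 13.1 and 11.6 FPKM to 80.3, 85.9 and 73.3 FPKM (2.51 ± 0.0871, SE) and HIST1H2BC from 14.0, 15.8 and 13.1 FPKM to 73.9, 69.6 and 56.0 FPKM (2.13 ± 0.139). The groups did not overlap in either gene, as in 68% of all genes. HIST1H2BK, the highest of them, rose from 93.4 ± 6.27 to 292 ± 28.5 FPKM and the linker histone HIST1H1C from 86.6 ± 4.83 to 224 ± 61.5 FPKM, with 294 FPKM in the third shBUB3 library and 182 and 195 FPKM in the others. HIST1H3A (-0.97), HIST1H2BL (-0.67) and HIST1H3J (-0.59) fell, and HIST1H4C was not called (3.28 ± 0.755 and 2.26 ± 0.563 FPKM).

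Against shUSP7, 26 of the 36 histone genes were higher and 2 lower, where 37.8% of all genes were higher. Against shFOXA1, 19 were higher (52.8%) and 4 lower, near the 48% of all genes that were higher in that comparison. HIST1H2BK stood at 54.3 ± 1.88 FPKM in shUSP7, and was higher in shBUB3 by 2.40. HIST1H2BC stood at 21.8 ± 2.5 FPKM in shUSP7 and 18.9 ± 3.46 FPKM in shFOXA1, below shBUB3 by 1.56 and 1.77. HIST2H2BE was the other way, at 156 ± 2.68 FPKM in shUSP7 and 106 ± 7.53 FPKM in shBUB3, a difference of -0.56. Genes of histone variants and histone mRNA processing did not rise with the clusters. Of 19, 10 were lower and 3 higher, with a median of -0.25. H2AFX, the variant phosphorylated at DNA breaks, fell from 119 ± 4.82 to 33.2 ± 6.88 FPKM, SLBP, which binds the stem-loop of histone messages, by -0.47, and H3F3B, which encodes histone H3.3, by -0.98.

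**Figure D4:**
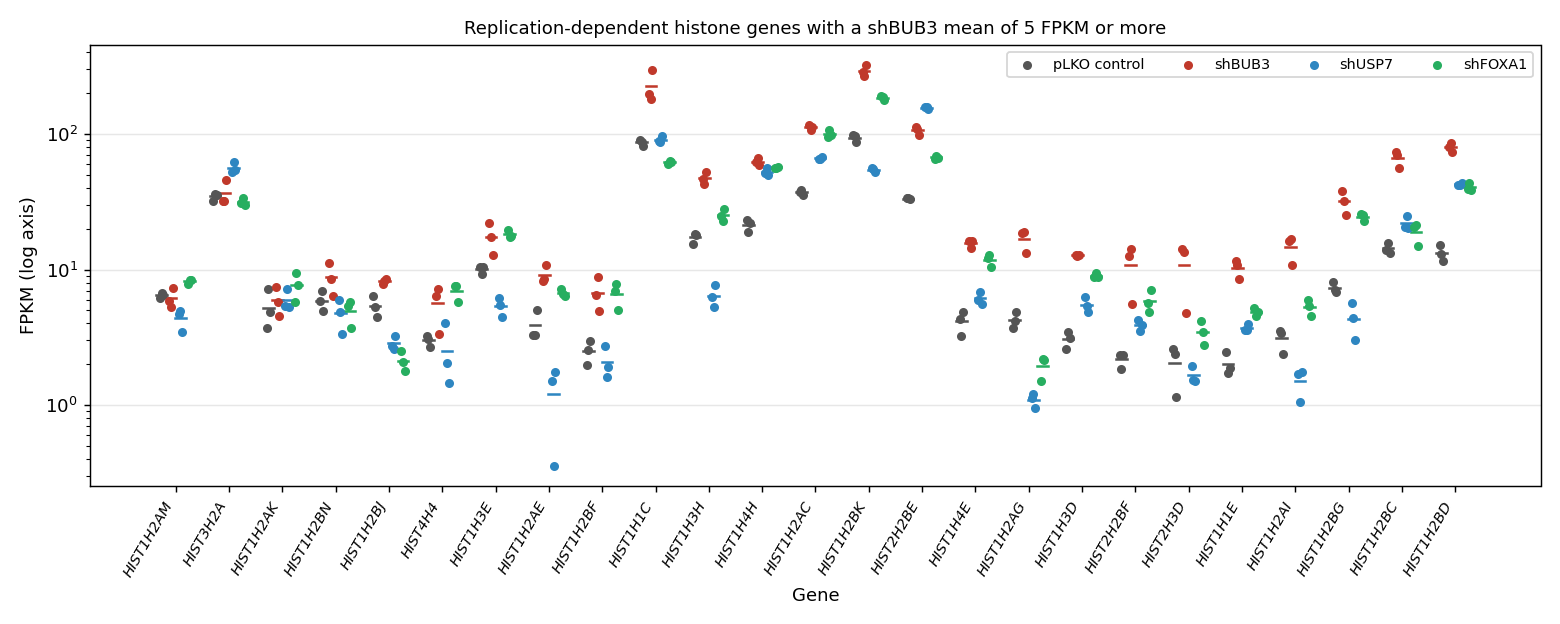
FPKM on a log axis (vertical) of the replication-dependent histone genes with a shBUB3 mean of at least 5 FPKM (horizontal, ordered by fold change against control), in 3 libraries of each of 4 groups, with short lines for means. HIST1H2BD and HIST1H2BC lie near 79.8 and 66.5 FPKM in shBUB3, above the other 3 groups.

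Some genes of stress response and cell death are given singly, and the count over the list they come from is not reported here. ZMAT3 (1.38), TP53INP1 (1.22), the death receptor FAS (1.13), TIGAR (1.06) and the cytokine GDF15 (1.00) rose by at least 2-fold. GDF15 stood at 666 ± 16.5 FPKM in the control and 1348 ± 240 FPKM in shBUB3. MDM2, a ubiquitin ligase, rose from 24.4, 23.2 and 23.6 FPKM to 35.9, 37.4 and 28.6 FPKM (0.49). RRM2B, a subunit of ribonucleotide reductase (-0.88), and SESN1, a sestrin (-0.59), fell. TP53I3 (0.26, adjusted p = 0.0534), TNFRSF10B (0.02), PLK2 (-0.05) and BAX (-0.25) did not pass. BAX was at -0.42 without the third shBUB3 library (adjusted p = 6.7e-05). FDXR, a mitochondrial reductase, stood at 24.2 ± 7.09 FPKM in shBUB3 and 111 ± 3.35 FPKM in shUSP7 (-2.19), RRM2B at 6.98 ± 0.782 and 32.3 ± 1.02 FPKM (-2.06) and PMAIP1 (NOXA) at 7.65 ± 0.42 and 37.4 ± 1.61 FPKM (-2.15). Among 23 BCL2 family and caspase genes, 8 were lower and 8 higher (34.8% each), near the 32.3% and 34.7% of all genes. MCL1, which protects against apoptosis, rose most of these 23, from 43.2 ± 1.35 to 83.3 ± 6.93 FPKM.

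FOXA1 did not pass the test, USP7 rose slightly and of the polycomb list 33.3% were lower, near the 32.3% of all genes. FOXA1 read 115.8, 115.6 and 115.9 FPKM in the control and 140, 135 and 110 FPKM in shBUB3, and the groups overlapped (0.14 ± 0.0757, adjusted p = 0.127). Without the third shBUB3 library FOXA1 was at 0.24 (adjusted p = 3.4e-05). USP7 rose by 0.20 (adjusted p = 0.00519), from 28.2 ± 0.517 to 32.6 ± 2.31 FPKM. EZH2, the methyltransferase of polycomb complex PRC2, fell from 12.7, 12.3 and 12.8 FPKM to 4.31, 4.74 and 4.59 FPKM (-1.29), and it was also lower than in shUSP7 by -0.39. Of 30 polycomb and related genes, 10 were lower and 8 higher, with a median of -0.04. SUZ12 fell by -0.59 and the PRC1 reader CBX2 by -1.02, while EED (0.14) and RNF2 (-0.09) were not called and EZH1, the second PRC2 methyltransferase, rose by 0.47. The DNA methylation genes UHRF1 and DNMT1 fell by -1.56 and -1.25.

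Androgen-induced genes were mostly lower. Of 39, 29 were lower and 2 higher, with a median of -0.73, and 13 fell by at least 2-fold. KLK3, which encodes PSA, stood at 1088 ± 3.16 FPKM in the control and at 617, 634 and 722 FPKM in shBUB3 (-0.73 ± 0.0776; limma adjusted p = 7.16e-06). All 3 shBUB3 libraries lay below the control. PPAP2A fell by -2.52, TSC22D3 by -2.35 and the prostein gene SLC45A3 by -1.31. FKBP5, a further androgen target, was not called (16.3 ± 0.785 and 14.8 ± 2.33 FPKM), nor was ELL2 (0.01). The 2 that rose were ZBTB16 (0.54) and KLK4 (0.13). Against shUSP7, 23 of the 39 were lower and 10 higher (25.6%), with a median of -0.45. In that comparison 28.3% of all genes were lower and 37.8% higher. Against shFOXA1, 18 were lower and 14 higher (35.9%), with a median of -0.07, beside 25.9% and 48% of all genes. KLK3 (1.13) and KLK2 (1.80) were among those higher than in shUSP7, in which they stood at 299 ± 16.1 and 14.3 ± 0.637 FPKM.

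The 5 UGT2B genes named here rose together. Enzymes of this family attach glucuronic acid to their substrates, which for some of them include androgens. The genes lie side by side on chromosome 4 and are close paralogs, so reads may be shared among them. UGT2B17 stood at 30.3, 28.7 and 30.3 FPKM in the control and 131, 140 and 151 FPKM in shBUB3, 4.72-fold higher. UGT2B15 went from 25.8 ± 0.639 to 103 ± 0.758 FPKM, UGT2B28 from 15.8 ± 1.45 to 55.6 ± 1.39 FPKM, UGT2B10 from 2.78 ± 0.117 to 12.7 ± 0.256 FPKM and UGT2B11 from 68.6 ± 0.965 to 145 ± 1.81 FPKM. None of these 5 overlapped between the groups, as was so for 68% of all genes. In shFOXA1, UGT2B17 stood at 0.390 ± 0.0692 FPKM and UGT2B15 at 0.752 ± 0.136 FPKM, below shBUB3 by 6.67 and 5.90. In shUSP7, UGT2B17 stood at 33.7 ± 2.31 FPKM, below shBUB3 by 2.03. Among other genes of androgen metabolism and transcription, SRD5A1, which encodes a 5-alpha reductase, the co-chaperone FKBP4 and the corepressor TLE1 rose, by 0.66, 0.59 and 0.52. HOXB13 fell by -0.63, and NCOA1 (-0.09), NCOA3 (0.08), NCOR1 (-0.22) and GRHL2 (-0.07) were not called.

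Luminal prostate markers were present and most markers of other cell types were not. Of 14 luminal markers, 13 were measured (NPY was listed at 0), and 11 fell and 2, the keratins KRT8 (0.81) and KRT18 (0.44), rose. Of 18 markers of basal, stromal, endothelial and immune cells, 4 passed the filter. KRT5, CDH5 and CD3E were listed at 0 in all 6 libraries, and DCN, LUM, PTPRC, PECAM1 and COL1A2 stayed below 0.1 FPKM. ACTA2, the smooth muscle actin, rose from 2.65, 2.82 and 2.97 FPKM to 11.2, 10.8 and 13.6 FPKM, VWF by 0.61 and COL1A1 by 0.34, while CD68 fell by -0.48. MYL9, the regulatory light chain of smooth muscle myosin, rose with ACTA2, from 3.57 ± 0.219 to 18.4 ± 5.49 FPKM.

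Among chaperones, lysosomal genes and mitochondrial subunits more members were higher than lower, where 34.7% of all genes were higher and 32.3% lower. Of 39 heat shock and chaperone genes, 24 were higher and 8 lower, with a median of 0.40. CLU (clusterin), a secreted chaperone, rose from 4.46, 3.98 and 4.37 FPKM to 36.7, 36.5 and 58.2 FPKM (3.05 ± 0.143). Without the third shBUB3 library the change of CLU was 2.84 and that of CDKN1A 2.87, so that their order turned. DNAJB4, a co-chaperone of HSP70, rose from 4.36, 4.45 and 4.13 FPKM to 23.5, 24.9 and 25.1 FPKM (2.26). CLU was higher than in shUSP7 (2.43 ± 0.11 FPKM) by 3.67 and than in shFOXA1 (30.3 ± 2.26 FPKM) by 0.48. HSP90AA1 rose by 0.67, and CDC37, the co-chaperone that hands kinases to HSP90, fell from 104 ± 3.89 to 28.3 ± 2.04 FPKM (-1.84). BAG3 fell by -1.14. Of 31 lysosome and autophagy genes, 20 were higher and 4 lower, with a median of 0.52. NPC1, which exports cholesterol from lysosomes, rose from 43.0 ± 2.48 to 155 ± 24.9 FPKM (1.82), ATP6V1H, a subunit of the lysosomal proton pump, by 1.39 and LAMP1 by 0.84. TFEB, the regulator of lysosomal genes, was not called (-0.09).

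Of 48 respiratory chain subunits, 30 were higher and 3 lower, with a median of 0.40, led by NDUFA2 (1.24) and NDUFS3 (1.08) of complex I. Of 78 cytosolic ribosomal protein genes, 53 were higher and 1, RPS25 (-0.80), was lower, with a median of 0.39. Both lists consist largely of short genes and were raised in the third shBUB3 library, by a median of 0.55 and 0.59 over its partners. Without that library their medians were 0.22 and 0.21, with 30 and 54 higher and 6 lower in each. RPLP2 shows the spread, at 913, 930 and 871 FPKM in the control and 1089, 1061 and 1785 FPKM in shBUB3. The ribosomal count also varied with other choices: 29 were higher without the third control library, 25 with no filter on low values and 19 when only the 6 libraries were fitted.

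Lists of fatty acid synthesis, amino acid supply and glycolysis had more members lower than higher, and cholesterol synthesis more higher than lower. Over all genes, 32.3% were lower and 34.7% higher. Of 20 genes of fatty acid synthesis and desaturation, 16 were lower and 2 higher, with a median of -0.54. FADS2, a desaturase of polyunsaturated fatty acids, went from 225, 214 and 221 FPKM to 19.4, 23.3 and 19.8 FPKM, 10.6-fold lower, and its neighbour FADS1 fell by -2.25. SCD, the desaturase of saturated chains, fell by -1.38, while FASN, the synthase itself, stood at 553 ± 19.5 and 558 ± 31.4 FPKM and was not called. ELOVL1, an elongase of very long chains, rose by 1.24. Of 39 genes of amino acid supply and ATF4 response, 25 were lower and 6 higher, with a median of -0.46. PHGDH, the first enzyme of serine synthesis, fell from 141 ± 1.06 to 40.6 ± 6.9 FPKM, MTHFD2 by -1.90, the cystine carrier SLC7A11 by -2.13 and TRIB3, an ATF4 target, by -1.37. Of 34 glycolysis and hypoxia genes, 23 were lower and 6 higher, with a median of -0.42, among them PFKP (-1.49), SLC2A1 (-1.33) and LDHA (-0.72). Cholesterol synthesis had 11 of 23 members higher (47.8%) and 5 lower (21.7%), with a median of 0.14. MSMO1 rose by 0.80 and SREBF2, the regulator of the pathway, fell by -1.19.

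Adhesion genes changed in both directions, as all genes did. Of 27, 11 were lower (40.7%) and 9 higher (33.3%), beside 32.3% and 34.7% of all genes. FN1 (fibronectin) went from 143, 122 and 134 FPKM to 17.7, 18.3 and 10.6 FPKM (-3.05 ± 0.152) and CDH1 (E-cadherin) from 157, 148 and 149 FPKM to 33.7, 34.5 and 27.1 FPKM (-2.23 ± 0.0775). The tight junction scaffold TJP1 fell by -1.38, while EPCAM (0.62) and the integrin ITGB1 (0.96) rose. Of 14 tubulin and stathmin family genes, 4 were lower (28.6%) and 6 higher (42.9%), not far from the shares of all genes. TUBA1B, the most abundant of them per length in the control, fell by -1.66 and TUBB by -0.91, while TUBB2A rose from 4.22 ± 0.396 to 11.4 ± 1.66 FPKM. Interferon-induced genes gave no common direction, with 8 of 21 lower (38.1%) and 5 higher (23.8%): OAS3 (-1.89) and IFITM2 (-1.69) fell and ISG15 (0.94) rose.

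Some genes lay at least 2-fold apart, and called, from control, shUSP7 and shFOXA1 alike, 78 lower (0.657%) and 61 higher (0.514%). Against shUSP7 alone, 450 genes were lower by at least 2-fold (3.79%) and 446 higher (3.76%), and against shFOXA1 alone 602 were lower (5.07%) and 1226 higher (10.3%). This grouping and the genes named from it outside the lists were chosen after the values were seen. STMN1 stood at 23.1 ± 1.4 FPKM in the control, 6.12 ± 0.232 in shUSP7, 6.46 ± 0.753 in shFOXA1 and 0.870 ± 0.176 FPKM in shBUB3. FADS2 stood at 220 ± 5.81, 75.5 ± 5.2, 158 ± 6.8 and 20.8 ± 2.12 FPKM in the same order. FN1 was at 87.0 ± 2.68 FPKM in shUSP7 and 229 ± 2.62 FPKM in shFOXA1, and shBUB3 was lower by -2.45 and -3.83. CDH1 in shBUB3 was lower by -1.79 and -3.25. In these genes the shBUB3 libraries were the lowest of all 12.

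Several genes of this kind changed in shBUB3 while the other knockdowns left them nearer to the control. ALDH18A1, the first enzyme of proline synthesis, stood at 44.3 ± 0.797 FPKM in the control, 46.4 ± 1.64 in shUSP7, 23.4 ± 0.789 in shFOXA1 and 5.04 ± 0.308 FPKM in shBUB3. The proteasome subunit PSMB6 was at 70.3 ± 5.61, 78.4 ± 1.99, 39.2 ± 2.96 and 13.8 ± 2.45 FPKM, and the mitochondrial ribosomal protein MRPL24 at 102 ± 5.98, 97.4 ± 5.49, 63.5 ± 0.487 and 17.5 ± 4.09 FPKM, in that order. The septins SEPT2 and SEPT7, filament proteins of cytokinesis, fell by -1.63 and -1.13, and the chromatin proteins HMGN2 and HMGB1 by -2.49 and -1.96. CD276 (B7-H3), an immune checkpoint ligand, fell from 31.3 ± 0.6 to 6.88 ± 0.586 FPKM, with 45.1 ± 1.33 FPKM in shUSP7 and 48.9 ± 0.766 FPKM in shFOXA1. Among the higher genes, B3GALNT2, a glycosyltransferase of dystroglycan, stood at 6.42 ± 0.189, 4.46 ± 0.298, 4.68 ± 0.104 and 31.6 ± 2.5 FPKM in control, shUSP7, shFOXA1 and shBUB3. ACTA2, at 0.920 ± 0.0529 FPKM in shUSP7 and 2.18 ± 0.356 FPKM in shFOXA1, and MYL9 were highest in shBUB3 too.

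**Figure D5:**
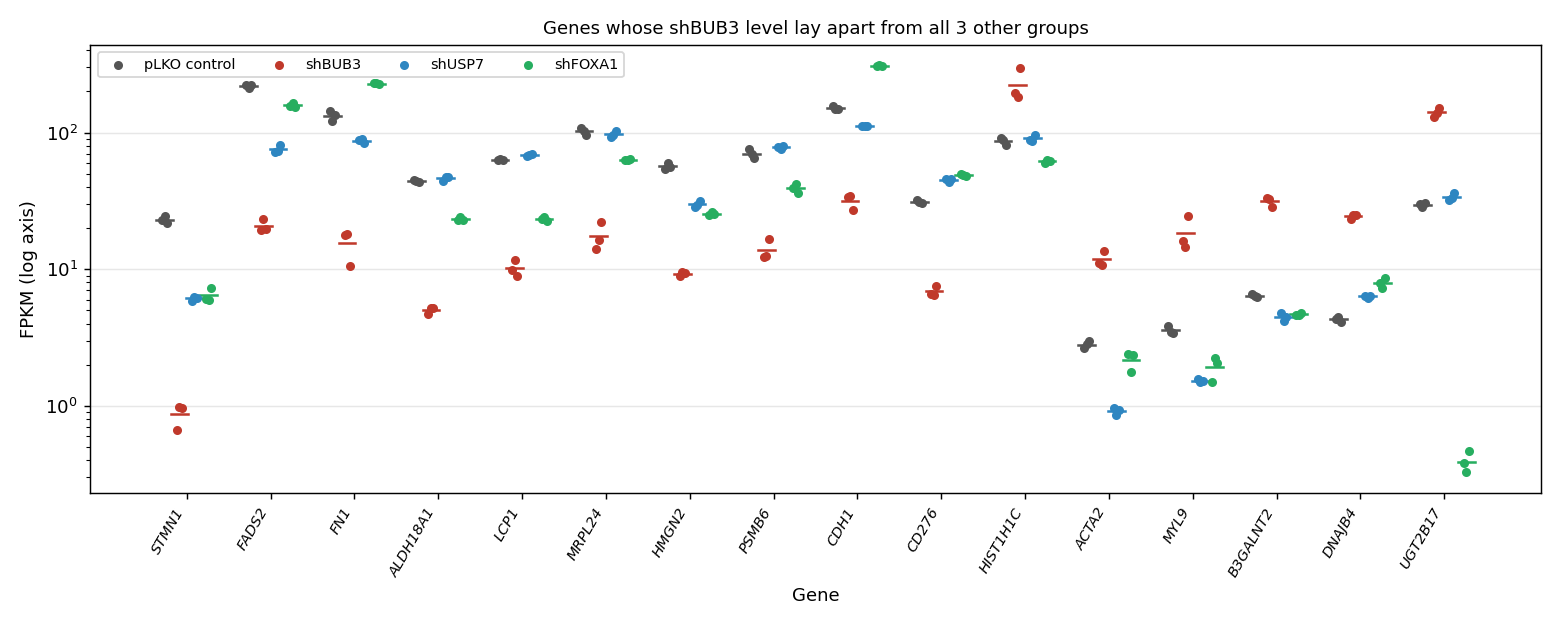
FPKM on a log axis (vertical) of 16 genes (horizontal) that were called and at least 2-fold apart in shBUB3 from each of the other 3 groups, in 3 libraries of each of 4 groups, with short lines for means. The 10 genes on the left, from STMN1 to CD276, are lowest in shBUB3 and the 6 on the right are highest, with UGT2B17 near 140 FPKM in shBUB3 and 0.390 FPKM in shFOXA1.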

How the data were processed

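RNA-seq of 12 LNCaP libraries of the pLKO experiment was used, 3 in each of pLKO control, shBUB3, shUSP7 and shFOXA1. The authors deposited FPKM values per gene symbol. Per the submitters' processing notes, reads were aligned with STAR to hg38. Neither the version nor the counter or annotation is given in the sources used here. Strand use is not stated, so overlapping, antisense and host genes cannot be told apart. Library totals are not in the table: depth is known only as a ratio between libraries, and no counting interval was computed. Of 26475 symbols, 32 had no values. Genes at 1 FPKM or more in at least 3 of the 12 libraries were fitted, and those that also met this in at least 3 of the 6 control and shBUB3 libraries are reported.

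Values were analysed as log2(FPKM + 1) with limma 3.58.1 in R 4.3.3 (group means, intensity trend, moderated two-sided tests). The contrasts were shBUB3 minus control, minus shUSP7 and minus shFOXA1, each with Benjamini-Hochberg adjustment over all fitted genes and a threshold of 0.05. The script was tested on simulated data. With 3 libraries a group, the smallest p of an exact two-sided permutation test is 0.1, and none is reported. Python 3.11.15 with NumPy 2.4.6, pandas 2.3.3 and matplotlib 3.10.9 made tables and figures.

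The members and the 35 gene lists were chosen with earlier results of these data known, and lists are described by counts and medians without a test. Genes named are BUB3, USP7, FOXA1, EZH2 and KLK3; any member of the checkpoint, anaphase-promoting complex, cyclin, inhibitor and E2F lists; called genes among the 15 highest and 15 lowest with a mean of at least 5 FPKM in either group and no overlap; and up to 8 called members of each other list, with members that did not pass. Genes named only for lying apart from all 3 other groups were picked by value, and some genes and lists are not reported here. Positions and exonic lengths are from GENCODE 29 (94.8% of members matched), and may differ from the annotation behind the table. Alternatives were a pseudocount of 0.1, no filter, a filter of 5 FPKM, median-ratio scaling, a threshold of 0.01, a replicate block, only the groups compared and each library left out, the last keeping the genes of the full fit.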

Additional observations from a re-analysis of the deposited data

How the results depend on the processing

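The count of genes called against the control was 7942, and lay between 7274 and 8820 when single libraries were left out, highest without the third shBUB3 library. It was 6583 at a threshold of 0.01, 7894 with a pseudocount of 0.1, 7257 with no filter, 6189 with a filter of 5 FPKM (fewer genes tested), 7960 after median-ratio scaling and 6946 with only the 6 libraries. With single libraries left out, the counts against shUSP7 and shFOXA1 lay between 7065 and 8561, and between 8297 and 9389. The filter of 5 FPKM left 19 kinetochore, 14 DNA repair, 6 E2F, RB and DREAM and 4 interferon-induced genes called lower, and 1 marker of other cell types called higher, because fewer were tested. Higher ribosomal protein genes numbered 25 with no filter, 19 with only the 6 libraries and 29 to 66 with single libraries left out; the cause was not tested. In the direction most members took, the counts of the other lists in the report stayed within 1.5 times under the alternatives other than the threshold of 0.01, which was not applied to lists. Over 898 genes of the lists and named groups and 12 alternatives, 10188 values kept their side of the threshold. A further 324 lost the call, 146 gained it and 2 reversed direction. A change of sign in a gene called in neither fit was not counted as a reversal. The reversals were ATP5G1 (-0.15) and NCOA2 (0.14), both without the third shBUB3 library, where leaving out single libraries gave up to 0.19 for ATP5G1 and down to -0.45 for NCOA2.

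Replicate numbers did not pair the libraries: deviations of same-numbered control and shBUB3 libraries correlated at 0.03, -0.22 and -0.13 across genes. With the number as a replicate block, 7887, 7742 and 8717 genes were called against control, shUSP7 and shFOXA1. The results rest on a single shBUB3 group with no hairpin number in its titles. Libraries of unstated origin and unknown read totals also limit these data. The shift of the third shBUB3 library with gene length touches changes of short and long genes.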
